A study of Mus musculus with 2 samples.

Results

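The kinesin, centromere and spindle checkpoint genes are the protein-coding genes whose symbol fits a pattern. It takes Kif, Bub or Anapc followed by a number, Kifc followed by a digit alone, and symbols that begin with Cenp, Aurk or Mad2l. Ndc80, Nuf2, Spc24, Spc25, Cdc20, Ttk and Incenp also fit, while Kifap3 and Kifc5b do not. The genes were chosen by symbol alone. Of them, 62 are among the 10617 distinct symbols of the deposited table, of which 9382 are protein-coding. GENCODE vM21 has 89 protein-coding gene models whose symbol fits the same pattern. Of these, 64 are in the table by gene ID, and the 2 beyond the 62 members, Cenpx and Kif1bp, stand there under other symbols. The other 25 models, among them Cdc20, Bub1b, Ndc80, Incenp, Cenpe and Kif2c, are not analysed here. Listing in the authors' deposited table required a corrected p-value of at most 0.05, so members without a called difference are outside it, and counts of direction hold for listed genes only.

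Messenger RNA was sequenced from Six2-expressing nephron progenitor cells, the cap mesenchyme cells that renew themselves and form nephrons. Flow cytometry isolated them from kidneys of mouse embryos of a mixed CD1 and C57BL background at embryonic day 15.5. The KO group had the genotype Six2CreGFP+;p53f/f, with floxed alleles of the p53 gene Trp53, and the WT group Six2CreGFP+;p53+/+. Both groups carry the Six2CreGFP transgene, and in KO its Cre recombinase, expressed where Six2 is, deletes the floxed alleles. There was 1 library per group, so no difference below has a replicate check. The sources used here do not give the number or pooling of embryos per library. The comparison asks what loss of p53 does to gene expression in these progenitors.

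Kinesins are motor proteins that use ATP to walk along microtubules or to take them apart. Some carry vesicles, organelles or the parts of cilia, and others build the mitotic spindle and divide the cell. Centromere proteins mark the site on each chromosome where the kinetochore forms, and the kinetochore binds spindle microtubules. Until every kinetochore is attached, the spindle checkpoint holds back the anaphase-promoting complex, the ubiquitin ligase that starts chromosome separation. In dividing cells of many kinds, p53 lowers mitotic genes indirectly, through p21 and the DREAM repressor complex, which binds a promoter element called CHR next to the transcription start, often with CCAAT boxes nearby.

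Promoter windows of RefSeq (build GRCm38.p6), from 250 bases before to 50 bases after a gene's start, were found by symbol for 54 of the 62 members, in 62 windows. They were searched on both strands for TTTGAA and TTCGAA, the core letters of CHR elements, and for CCAAT. The letters of TTCGAA read the same on both strands, and different motifs can share only a base at their ends. Of 35 windows of mitotic kinesins, centromere, kinetochore, checkpoint and Aurora members, 20 (57.1%) held TTTGAA or TTCGAA, against 19.2% of all 32851 windows and 12.9% of 4442 windows of listed genes with high density. CCAAT was in 24 of the 35 (68.6%), against 37.4% of all windows. Within 50 bases of the start, TTTGAA or TTCGAA began in 16 of the 35 (45.7%), against 5.31% of all windows. Among 18 windows of ciliary and other kinesins, 4 (22.2%) held TTTGAA or TTCGAA, and among 9 windows of the anaphase-promoting complex 2 (22.2%) did. A match is a description of letters and not of a bound site.

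The windows of 6 members are shown as examples of members with and without these letters, in both directions of difference. Cenpf, Kif23 and Bub1 had higher densities in KO as deposited, Cenpa and Cenpm had lower ones, and Kif12 had the lowest ratio of all members. Each window is written 5′ to 3′ along the gene, and capitals mark the searched motifs on either strand, so that CCAAT appears as ATTGG where it lies on the other strand.

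Cenpf, chr1:189688037-189688336, minus strand: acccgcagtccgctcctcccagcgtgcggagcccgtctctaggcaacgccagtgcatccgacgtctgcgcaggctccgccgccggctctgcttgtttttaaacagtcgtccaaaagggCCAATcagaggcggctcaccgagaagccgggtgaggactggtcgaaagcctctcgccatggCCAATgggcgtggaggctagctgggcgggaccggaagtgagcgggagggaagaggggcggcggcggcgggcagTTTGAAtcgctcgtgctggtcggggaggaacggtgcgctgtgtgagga

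Kif23, chr9:61946750-61947049, minus strand: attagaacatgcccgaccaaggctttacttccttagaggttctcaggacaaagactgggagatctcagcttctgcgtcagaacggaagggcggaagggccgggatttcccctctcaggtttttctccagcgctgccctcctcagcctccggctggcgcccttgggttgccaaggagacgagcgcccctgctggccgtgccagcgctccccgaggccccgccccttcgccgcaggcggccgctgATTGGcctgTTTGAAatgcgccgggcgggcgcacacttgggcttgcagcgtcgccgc

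Bub1, chr2:127831810-127832109, minus strand: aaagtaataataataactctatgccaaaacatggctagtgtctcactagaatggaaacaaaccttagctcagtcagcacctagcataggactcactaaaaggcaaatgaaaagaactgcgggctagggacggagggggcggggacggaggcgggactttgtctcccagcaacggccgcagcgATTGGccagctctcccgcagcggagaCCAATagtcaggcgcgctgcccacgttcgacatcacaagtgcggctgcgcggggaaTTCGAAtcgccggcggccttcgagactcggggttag

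Cenpa, chr5:30666636-30666935, plus strand: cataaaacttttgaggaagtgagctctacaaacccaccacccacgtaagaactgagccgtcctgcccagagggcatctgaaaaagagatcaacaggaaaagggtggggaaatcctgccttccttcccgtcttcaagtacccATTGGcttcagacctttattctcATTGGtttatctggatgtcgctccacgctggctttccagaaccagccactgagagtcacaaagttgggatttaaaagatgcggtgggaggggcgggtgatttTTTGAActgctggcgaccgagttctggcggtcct

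Cenpm, chr15:82244287-82244586, minus strand: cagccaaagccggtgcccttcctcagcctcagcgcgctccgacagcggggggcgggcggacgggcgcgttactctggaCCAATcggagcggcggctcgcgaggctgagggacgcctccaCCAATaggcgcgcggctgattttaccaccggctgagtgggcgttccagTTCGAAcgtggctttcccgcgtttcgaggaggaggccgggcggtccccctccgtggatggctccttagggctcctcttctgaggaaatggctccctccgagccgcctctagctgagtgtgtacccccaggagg

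Kif12, chr4:63172082-63172381, minus strand: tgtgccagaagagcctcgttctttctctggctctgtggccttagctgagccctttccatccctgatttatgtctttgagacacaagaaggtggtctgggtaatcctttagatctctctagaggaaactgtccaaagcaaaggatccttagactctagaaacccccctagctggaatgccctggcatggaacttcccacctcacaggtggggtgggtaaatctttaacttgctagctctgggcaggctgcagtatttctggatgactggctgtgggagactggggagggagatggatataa

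In these windows, TTTGAA began 2 bases after the annotated start base in both Cenpf and Kif23, and 16 bases after it in Cenpa. TTCGAA began 14 bases after the start in Bub1 and 83 bases before it in Cenpm. All 5 windows also held CCAAT, and the Kif12 window held none of the 3 motifs.

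Levels are read densities in RPKM, reads per kilobase of gene scaled to library depth, and the implied depth was about 85600000 reads in KO and 91200000 in WT. Trp53, the targeted gene, was at 5.38 RPKM in KO, against 33.9 RPKM in WT, a KO over WT ratio of 0.158. The exact 95% interval of that ratio was 0.151 to 0.166, and this and all later intervals cover counting error only. The density covers the whole gene, and which exons are floxed is not stated in the labels. Six2, the marker of the sort, was at 509 RPKM in KO and 482 RPKM in WT. All 10 nephron progenitor markers were in the table with a summed density of 1106 RPKM in KO and 1068 RPKM in WT. Of these 10, 4 were higher and 6 lower in KO, with ratios between 0.681 in Cited1 and 1.28 in Itga8. Of 6 other cell types checked, every listed marker of 5 was lower in KO, 8 of 8 erythroid (sum 23.6 RPKM in KO, 632 RPKM in WT), 8 of 8 leukocyte (2.00 RPKM in KO, 15.1 RPKM in WT), 9 of 9 endothelial (2.14 RPKM in KO, 7.36 RPKM in WT), 9 of 9 stromal (129 RPKM in KO, 278 RPKM in WT) and 9 of 9 ureteric bud genes (42.0 RPKM in KO, 54.5 RPKM in WT). Of 3 listed neural markers 1 was lower. Among all 10617 listed symbols, 63.9% were lower in KO. No listed marker was at 0 in either library.

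The 62 members spanned a wide range of levels, as the plot of densities by role shows. Densities ran between 0.204 and 118 RPKM in KO and between 0.285 and 132 RPKM in WT, with medians of 12.8 RPKM in KO and 11.8 RPKM in WT. The highest were Cenpb, Anapc5 and Anapc13, and the lowest was Kif5a, a neuronal motor. A floor at the median density of all listed genes, 7.30 RPKM over both libraries, left 41 members above it and 21 below. Members above it had at least 2181 estimated reads in KO and 2611 in WT. The summed density of all 62 was 1147 RPKM in KO and 1192 RPKM in WT.

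**Figure D1:**
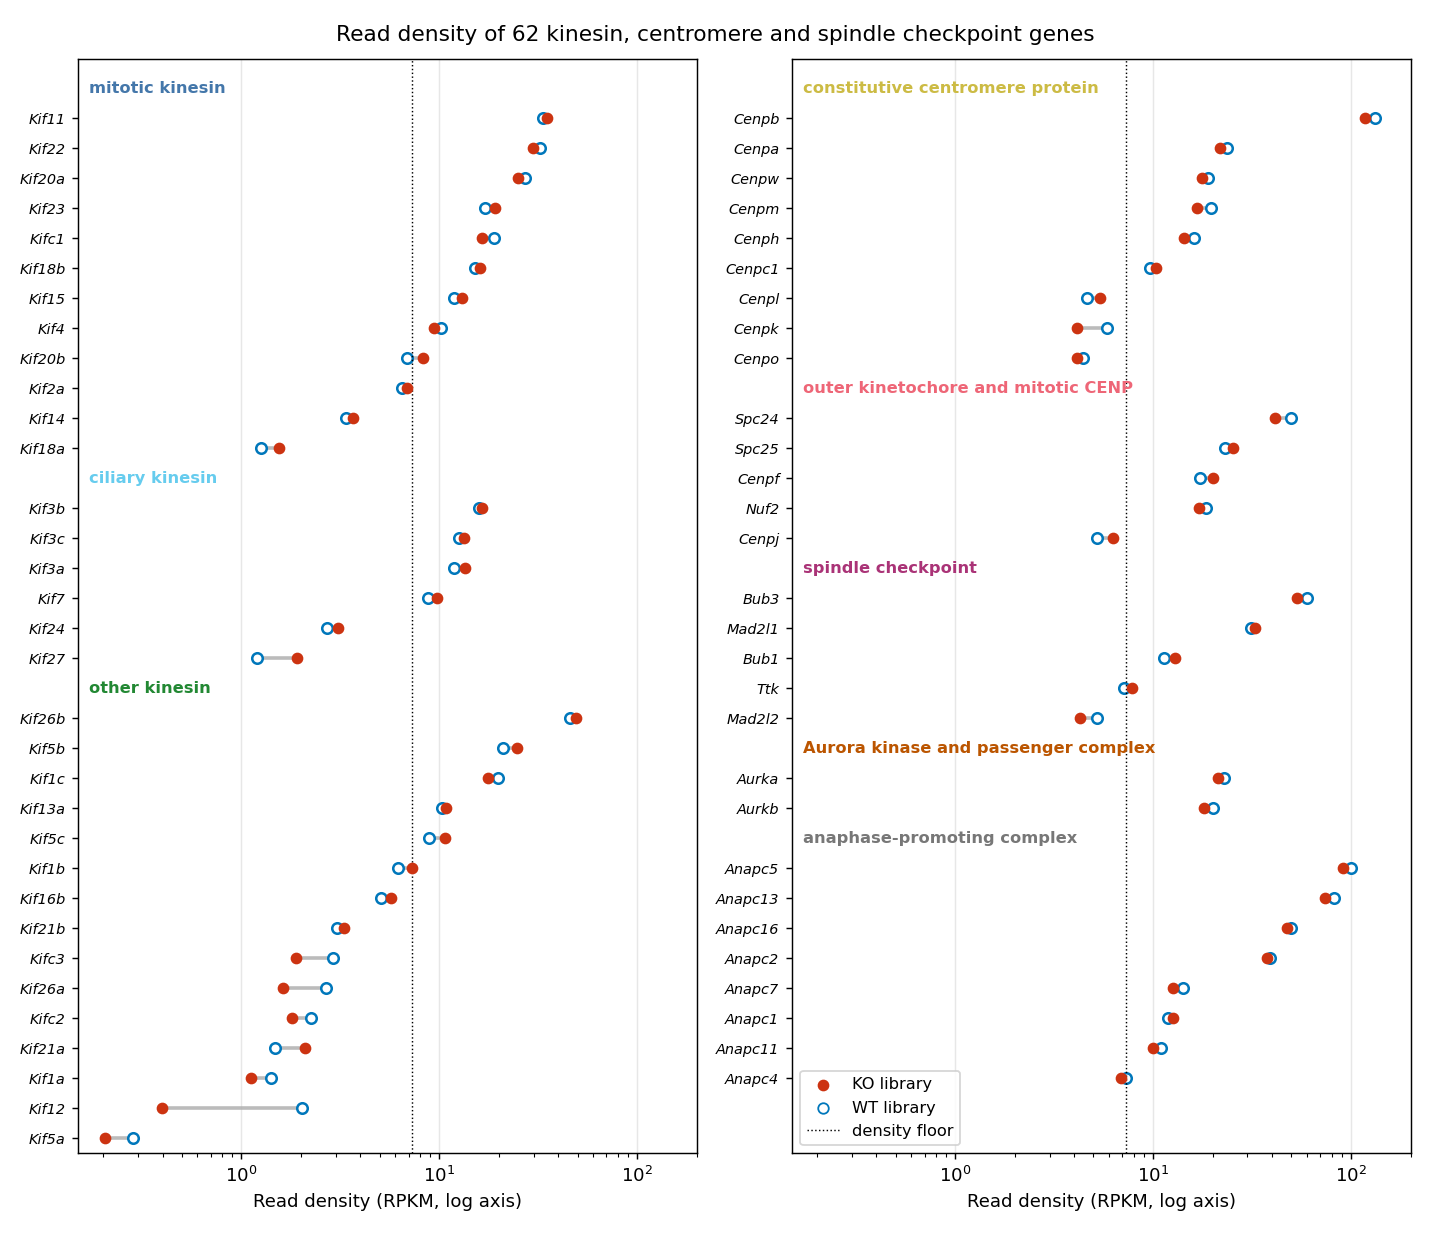
Read density (RPKM, log axis) of the 62 members in the KO library (filled red) and the WT library (open blue), grouped by role and ordered by mean density, with 1 library per group and the density floor of 7.30 RPKM dotted. The paired points lie close together for nearly all members, and the widest gaps are at low density, in Kif12, Kif26a, Kifc3 and Kif27.

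Differences were small in every member above the floor. On the scale of log2(KO + 1) minus log2(WT + 1), 0 of 41 were at least 1.5-fold higher in KO, against 0.659% of all 5309 listed genes above the floor. Likewise 0 of 41 were at least 1.5-fold lower, against 2.41% of all. Their KO over WT density ratios lay between 0.83 and 1.205. In direction they were split, with 20 higher in KO, where 44.2% of all were, and 21 lower, where 55.8% of all were. Their median was -0.05, against -0.07 for all. Of the 21 members under the floor, 11 were higher, where 28.1% of all 5308 listed genes under it were, and 10 lower, where 71.9% were. Of these, 0 were at least 1.5-fold higher, against 1.24% of all, and 1 was at least 1.5-fold lower, against 8.57%. Directions were also read after a correction for GC content and length, which subtracts the median difference of listed genes alike in both and adds back an overall median. For genes above the floor, both medians came from listed genes above it, and for genes below it from all listed genes. Counts that join genes above and below the floor thus mix 2 reference sets. Above the floor the overall median added back was -0.07, so a gene equal to those like it stands at -0.07 and counts as lower. Counts of lower genes after the correction are thus read against 0, and not against genes of like GC content and length. The correction turned 15 of the 41 signs above the floor, so each group is given both ways. Over all 10617 listed symbols, 36.1% were higher and 63.9% lower in KO as deposited, and 77.6% of the 10508 with a gene model were lower after the correction. Counts of lower members near these shares are the background of the table. Few listed genes sit near a ratio of 1. The 2 densities were within 5% of each other in 6 of the 62 members and in 518 of all 10617 symbols.

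**Figure D2:**
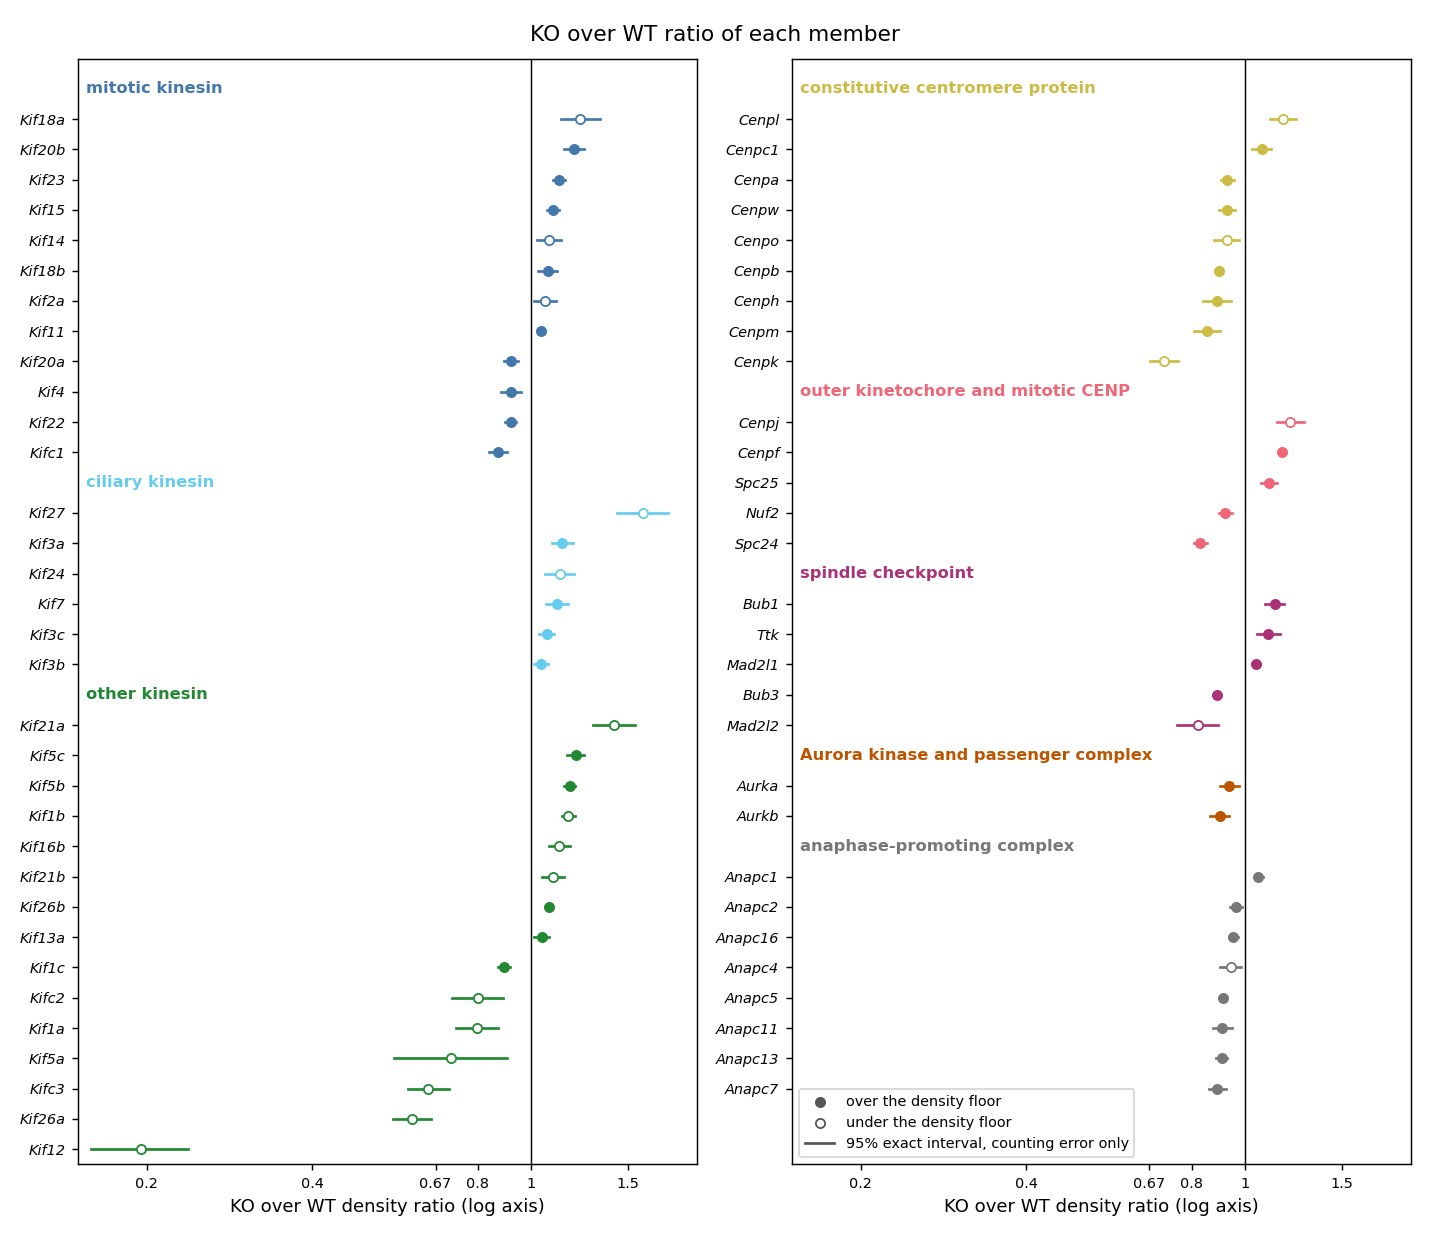
KO over WT density ratio (log axis) of each member by role, with 95% exact intervals that cover counting error only. Filled points are the 41 members above the density floor, all between 0.83 and 1.205, and open points the 21 below it, of which Kif12 lies farthest out at 0.195.

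Mitotic kinesins had 12 listed members, 8 higher and 4 lower in KO on deposited densities, and 11 of 12 lower after the correction, with Kif18b the exception. All listed genes, above and below the floor as here, were lower in 63.9% as deposited and in 77.6% after the correction. Their summed density was 184.4 RPKM in KO and 184.5 RPKM in WT. Kif11, the motor that pushes spindle poles apart and the most abundant of them, was at 35.0 RPKM in KO and 33.6 RPKM in WT, a ratio of 1.04 (1.02 to 1.06). Kif20b, which acts in cytokinesis, had the largest positive difference among those above the floor, at 8.27 RPKM in KO and 6.91 RPKM in WT, a ratio of 1.20 (1.15 to 1.25). Kif23, a subunit of the centralspindlin complex at the midzone of the dividing cell, was at 19.2 RPKM in KO and 17.1 RPKM in WT. Kif15, which helps Kif11 hold the spindle bipolar, was at 13.0 RPKM in KO and 11.8 RPKM in WT. Kif18b, which acts at microtubule plus ends in mitosis, was at 16.2 RPKM in KO and 15.1 RPKM in WT. These 5 were higher in KO as deposited, by ratios of 1.04 to 1.20. Under the floor, Kif2a, a microtubule depolymerase, was at 6.86 RPKM in KO and 6.46 RPKM in WT, and the cytokinesis motor Kif14 at 3.66 RPKM in KO and 3.39 RPKM in WT. Kif18a, which aligns chromosomes at the spindle equator, was at 1.55 RPKM in KO and 1.26 RPKM in WT.

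The 4 lower mitotic kinesins had ratios of 0.869 to 0.919. Kifc1, a motor that walks to microtubule minus ends and focuses spindle poles, was at 16.5 RPKM in KO and 19.0 RPKM in WT. Its close relative Kifc5b, which the symbol rule leaves out, was at 12.1 RPKM in KO and 10.3 RPKM in WT. The sources used here do not say how reads that match both were counted, so the opposite directions of this pair are uncertain. Summed, Kifc1 and Kifc5b had 28.65 RPKM in KO and 29.37 RPKM in WT, a ratio of 0.975. The chromokinesin Kif22 was at 29.7 RPKM in KO and 32.4 RPKM in WT, and the cytokinesis motor Kif20a at 25.1 RPKM in KO and 27.3 RPKM in WT. Kif4, which also binds chromosome arms, was at 9.37 RPKM in KO and 10.2 RPKM in WT. Kif20a shares 29.3% of its exon bases with Cdc23 on the opposite strand and Kif4 15.1% with Pdzd11, and whether counting used the strand is not stated.

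Kinesins of the cilium were higher in KO in 6 of 6 listed members on deposited densities, and 2 of the 6 were lower after the correction. Of all listed genes, 36.1% were higher as deposited and 77.6% lower after the correction. Kif3a and Kif3b form the motor that carries cargo to the ciliary tip. Kif3a was at 13.4 RPKM in KO and 11.8 RPKM in WT, a ratio of 1.14 (1.09 to 1.19), and Kif3b at 16.5 RPKM in KO and 15.8 RPKM in WT. Their relative Kif3c was at 13.4 RPKM in KO and 12.6 RPKM in WT. Kif7, a regulator of Hedgehog signalling at the tip of the cilium, was at 9.76 RPKM in KO and 8.75 RPKM in WT. Of these 4 above the floor, Kif3c and Kif7 overlap antisense genes over 35.3% and 19.1% of their exon bases. After the correction, Kif3a and Kif7 stayed above 0 (0.15 and 0.20), while Kif3b and Kif3c went to -0.06 and -0.05. Kif27, a relative of Kif7, had the highest ratio of all members, at 1.91 RPKM in KO and 1.20 RPKM in WT, or 1.60 (1.43 to 1.78). It lies under the floor, where its difference on the log2(density + 1) scale was 0.40, short of 1.5-fold, and 0.33 after the correction. Kif24, which restrains cilium formation, was at 3.07 RPKM in KO and 2.72 RPKM in WT.

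The 15 other kinesins, mostly transport motors, had 8 members higher and 7 lower in KO on deposited densities, and 9 lower after the correction. The shares of all listed genes that were lower were 63.9% and 77.6%. The higher ones above the floor were led by the conventional kinesin heavy chains. Kif5b was at 24.7 RPKM in KO and 21.0 RPKM in WT, a ratio of 1.17 (1.15 to 1.20). Kif5c was at 10.7 RPKM in KO and 8.85 RPKM in WT, the highest ratio above the floor at 1.205 (1.16 to 1.25). Their log2 differences of 0.22 and 0.24 became -0.06 for Kif5b and 0.11 for Kif5c after the correction. Kif26b, which in mice is needed for the kidney mesenchyme to hold together around the ureteric bud, was the most abundant kinesin, at 49.3 RPKM in KO and 45.7 RPKM in WT. Its ratio was 1.08 (1.07 to 1.09), and its log2 difference was 0.11 on the deposited densities and 0.13 after the correction. Kif13a, a motor of endosomal traffic, was at 10.8 RPKM in KO and 10.4 RPKM in WT. Kif1c, a vesicle motor, was the 1 member of this group above the floor that was lower, at 17.6 RPKM in KO and 19.8 RPKM in WT, a ratio of 0.893 (0.870 to 0.916).

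Among the 15 other kinesins, the widest ratios were at low density. Kif12 (ENSMUSG00000028357, chromosome 4, 63165634 to 63172131, minus strand of GRCm38), a kinesin known from renal tubule epithelium, was at 0.396 RPKM in KO and 2.03 RPKM in WT. That is a ratio of 0.195 (0.158 to 0.238), from an estimated 115 reads in KO and 629 in WT. In the authors' deposited table Kif12 was 4.93-fold lower in KO with a deposited p-value of 0. Its log2(density + 1) difference of -1.12 made it the 1 member at least 1.5-fold lower, and was -1.05 after the correction. Kif26a, a relative of Kif26b that lacks motor activity, was at 1.63 RPKM in KO and 2.68 RPKM in WT, a ratio of 0.607 (0.560 to 0.658). Kifc3, a minus-end motor of epithelial junctions, was at 1.89 RPKM in KO and 2.91 RPKM in WT, a ratio of 0.650 (0.597 to 0.708). Kif26a and Kifc3 were lower in KO by over 1.5-fold as plain ratios but not on the log2(density + 1) scale.

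Beside these 3 genes, every listed erythroid, leukocyte, endothelial, stromal and ureteric bud marker was lower in KO, with the summed densities given above. All listed leukocyte and endothelial markers and 8 of 9 ureteric bud markers lay under the floor. There, 71.9% of all listed genes were lower in KO. Of the ureteric bud list, the epithelial keratins Krt8 (1.88 RPKM in KO, 5.41 RPKM in WT) and Krt18 (2.94 RPKM in KO, 4.89 RPKM in WT) were among the lower. The part of such cells in the Kif12, Kif26a and Kifc3 values was not tested. In bulk RNA, fewer cells of a type and less RNA per cell cannot be told apart.

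Neuronal motors were near the bottom of the range. Kif1a, which carries synaptic vesicle precursors, was at 1.12 RPKM in KO and 1.41 RPKM in WT, and Kif5a at 0.204 RPKM in KO and 0.285 RPKM in WT. Of 12 neural markers 3 were in the table, with Stmn2 at 0.159 RPKM in KO and 1.796 RPKM in WT, Nefl at 1.501 RPKM in KO and 0.615 RPKM in WT, and Elavl4 at 4.17 RPKM in KO and 3.08 RPKM in WT. The 3 thus differed in direction, and their part in the motors' values was not tested. Kif21a, another motor of axons, went the other way, at 2.09 RPKM in KO and 1.48 RPKM in WT, a ratio of 1.41 (1.29 to 1.55), and stayed higher after the correction (0.24). Kif21b, its relative, was at 3.32 RPKM in KO and 3.03 RPKM in WT. The remaining transport motors were Kif1b (7.27 RPKM in KO, 6.22 RPKM in WT), Kif16b of endosomes (5.71 RPKM in KO, 5.07 RPKM in WT) and Kifc2 (1.81 RPKM in KO, 2.26 RPKM in WT).

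Constitutive centromere proteins were lower in KO in 7 of 9 listed members and 5 of 6 above the floor on deposited densities. After the correction 9 of 9 were lower. Their median deposited log2 difference was -0.10, against -0.11 for all listed genes. Above the floor it was -0.13, against -0.07. Of all listed genes, 63.9% were lower as deposited and 77.6% after the correction, and 55.8% above the floor as deposited. Cenpb, which binds a short DNA motif in satellite repeats, had the highest density of all members, at 118 RPKM in KO and 132 RPKM in WT, a ratio of 0.895 (0.884 to 0.906). Cenpa, the histone H3 variant that defines the centromere, was at 21.9 RPKM in KO and 23.5 RPKM in WT, a ratio of 0.929 (0.905 to 0.953). Cenpm, a subunit of the inner kinetochore network, was at 16.7 RPKM in KO and 19.5 RPKM in WT, a ratio of 0.853 (0.807 to 0.901). Of the same network, Cenph was at 14.3 RPKM in KO and 16.0 RPKM in WT and Cenpw at 17.7 RPKM in KO and 19.0 RPKM in WT. Cenpk, under the floor, had the lowest ratio of the group at 0.712 (0.671 to 0.756), from 4.15 RPKM in KO and 5.82 RPKM in WT. Cenpc1, which links the centromere to the outer kinetochore, and Cenpl were the 2 higher members as deposited. Cenpc1 was at 10.3 RPKM in KO and 9.61 RPKM in WT, and Cenpl at 5.42 RPKM in KO and 4.62 RPKM in WT. Cenpo was at 4.12 RPKM in KO and 4.45 RPKM in WT.

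Subunits of the microtubule-binding NDC80 complex differed in direction on deposited densities. All 3 listed were lower after the correction, where 72.8% of all listed genes above the floor were lower. Spc24 (ENSMUSG00000074476, chromosome 9, 21755442 to 21760286, minus strand) was at 41.5 RPKM in KO and 49.98 RPKM in WT, the lowest ratio above the floor at 0.830 (0.807 to 0.853). Its partner Spc25, with which it forms one end of the complex, was at 25.4 RPKM in KO and 23.0 RPKM in WT, a ratio of 1.10 (1.07 to 1.14). Nuf2 was at 17.1 RPKM in KO and 18.6 RPKM in WT. The intervals of Spc24 and Spc25 lie on opposite sides of 1. After the correction both were below 0, Spc24 at -0.19 and Spc25 at -0.07. Cenpf (ENSMUSG00000026605, chromosome 1, 189640599 to 189688086, minus strand), a large protein of the outer kinetochore made in G2 and mitosis, was at 20.2 RPKM in KO and 17.3 RPKM in WT, a ratio of 1.17 (1.15 to 1.19). Its log2 difference of 0.21 became -0.02 after the correction. Cenpj, a centriole protein despite its name, was at 6.30 RPKM in KO and 5.21 RPKM in WT.

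Spindle checkpoint genes were split on deposited densities, 3 higher and 2 lower, and 5 of 5 lower after the correction, where 77.6% of all listed genes were lower. Bub1, the kinase that recruits checkpoint proteins to kinetochores, was at 12.9 RPKM in KO and 11.4 RPKM in WT, a ratio of 1.13 (1.09 to 1.18). Ttk, the kinase Mps1 at the head of the checkpoint, was at 7.84 RPKM in KO and 7.11 RPKM in WT. Mad2l1, the Mad2 protein that binds and blocks the activator of the anaphase-promoting complex, was at 32.8 RPKM in KO and 31.3 RPKM in WT. Bub3, the most abundant and the partner of Bub1, was lower, at 53.3 RPKM in KO and 59.97 RPKM in WT, a ratio of 0.888 (0.875 to 0.902). Mad2l2, which acts mainly in DNA repair, was at 4.28 RPKM in KO and 5.21 RPKM in WT. The 3 higher genes, Bub1, Ttk and Mad2l1, had log2 differences of 0.16, 0.12 and 0.06 on deposited densities and -0.10, -0.10 and -0.22 after the correction.

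Both Aurora kinases in the table were lower in KO as deposited. After the correction Aurka was at -0.05 and Aurkb at -0.07, where the median of all listed genes above the floor was -0.07. Of all listed genes above the floor, 55.8% were lower as deposited and 72.8% after the correction. Aurka, the kinase of the spindle poles, was at 21.3 RPKM in KO and 22.7 RPKM in WT, a ratio of 0.936 (0.899 to 0.974). Aurkb, the kinase of the chromosomal passenger complex that corrects faulty attachments, was at 18.04 RPKM in KO and 20.05 RPKM in WT, a ratio of 0.900 (0.865 to 0.936). When each deposited difference is taken relative to the median of all genes above the floor, Aurka was at -0.02 and Aurkb at -0.07 (log2).

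Subunits of the anaphase-promoting complex were lower in KO in 7 of 8 listed members, before and after the correction, against 63.9% and 77.6% of all listed genes. Anapc5, a scaffold subunit, was at 91.5 RPKM in KO and 100.5 RPKM in WT, a ratio of 0.910 (0.899 to 0.921). Anapc13 was at 74.2 RPKM in KO and 81.8 RPKM in WT, and Anapc16 at 47.4 RPKM in KO and 49.7 RPKM in WT. Anapc7 had the lowest ratio of the group, 0.890 (0.858 to 0.922), from 12.6 RPKM in KO and 14.2 RPKM in WT. The catalytic pair Anapc2 and Anapc11 had ratios of 0.964 and 0.910. Anapc2 was at 37.5 RPKM in KO and 38.9 RPKM in WT, and the authors' deposited table gives it as 1.003-fold higher in KO, since their fold carries a further scaling of 1.04 between libraries. Anapc1, the largest subunit, was the 1 higher member as deposited, at 12.6 RPKM in KO and 11.9 RPKM in WT, and at -0.10 after the correction, where Anapc2 was above 0. Anapc11 was at 9.99 RPKM in KO and 10.98 RPKM in WT, and Anapc4 at 6.88 RPKM in KO and 7.30 RPKM in WT. Relative to the median of all genes above the floor, Anapc2 and Anapc16 were at 0.02 and 0.003, on the other side of 0.

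Direction moved with base composition and gene length, as the plot of differences by GC content shows. Across the 41 members above the floor, the log2 difference had a Spearman's rho of -0.49 with GC content and 0.45 with length. For all 5263 listed genes above the floor with a gene model these were -0.53 and 0.34. Genes share the same 2 libraries and are not independent. The 20 higher members had a median GC content of 44.5% and a median length of 7.27 kb, against 51.7% and 4.89 kb for the 21 lower ones. Among all listed genes above the floor, cut into 5 equal bins by GC content, the lowest bin had a median difference of 0.17 and the highest -0.15. The 12 members in the lowest bin had a median of 0.12, and the 4 in the highest one of -0.18.

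**Figure D3:**
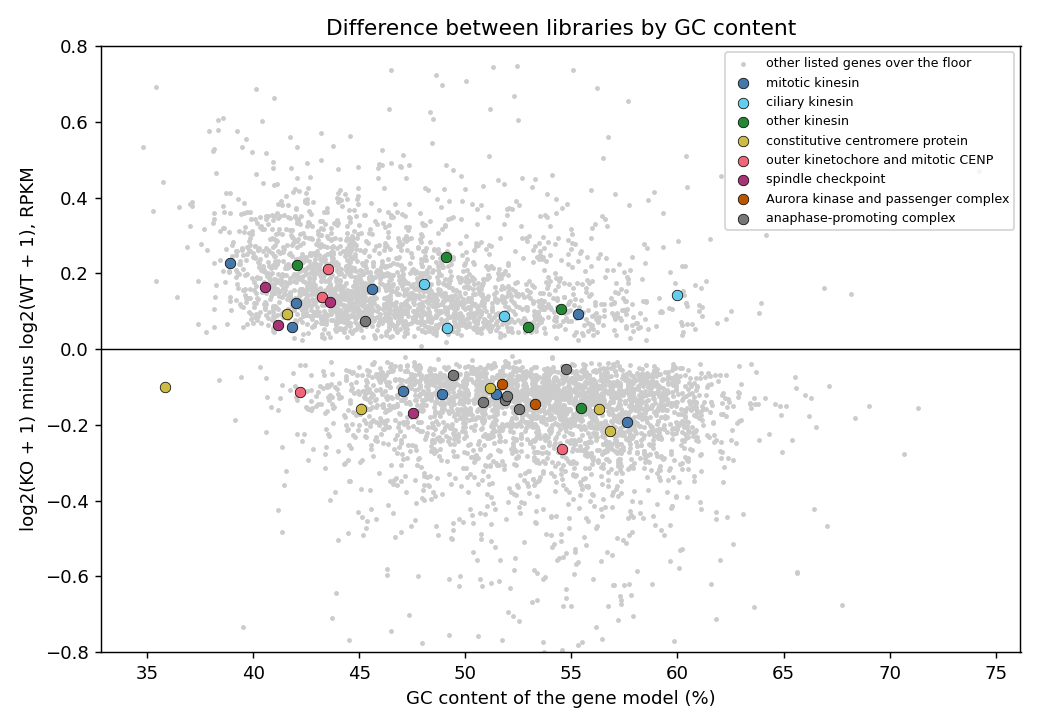
Log2 difference between KO and WT (RPKM, pseudocount 1) against GC content of the gene model for listed genes above the density floor, in grey, and for the 41 members, coloured by role; 80 genes beyond a difference of 0.8 in either direction are not shown. Points thin out around 0 in this list of called genes, and both the grey and the coloured points shift from above 0 at low GC content to below 0 at high GC content.

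The correction left 34 of the 41 members lower in KO, and 72.8% of all listed genes above the floor. The median of the members was then -0.10, against -0.07 for all. Across the 41 members, Spearman's rho of the corrected difference with GC content was 0.32. Across all 5263 listed genes above the floor with a gene model it was -0.009. In the members the trend with GC content thus changed sign under the correction. Whether the correction goes too far in these genes was not tested. Of the 20 members higher on deposited densities, 13 were kinesins, and 6 of these 13 were the only higher members that stayed above 0. The 6 were Kif7, Kif18b, Kif3a, Kif26b, Kif5c and Kif13a. Of the 21 lower members, 20 stayed below 0, and Anapc2 was the exception. The largest corrected differences above the floor were -0.38 in Nuf2, -0.37 in Cenpw and -0.33 in Bub3, genes of lower GC content whose densities were lower in KO. On deposited densities the differences of these 3 were -0.11, -0.10 and -0.17. Relative to the median of all genes, 26 of 41 were below it after the correction and 19 of 41 before.

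**Figure D4:**
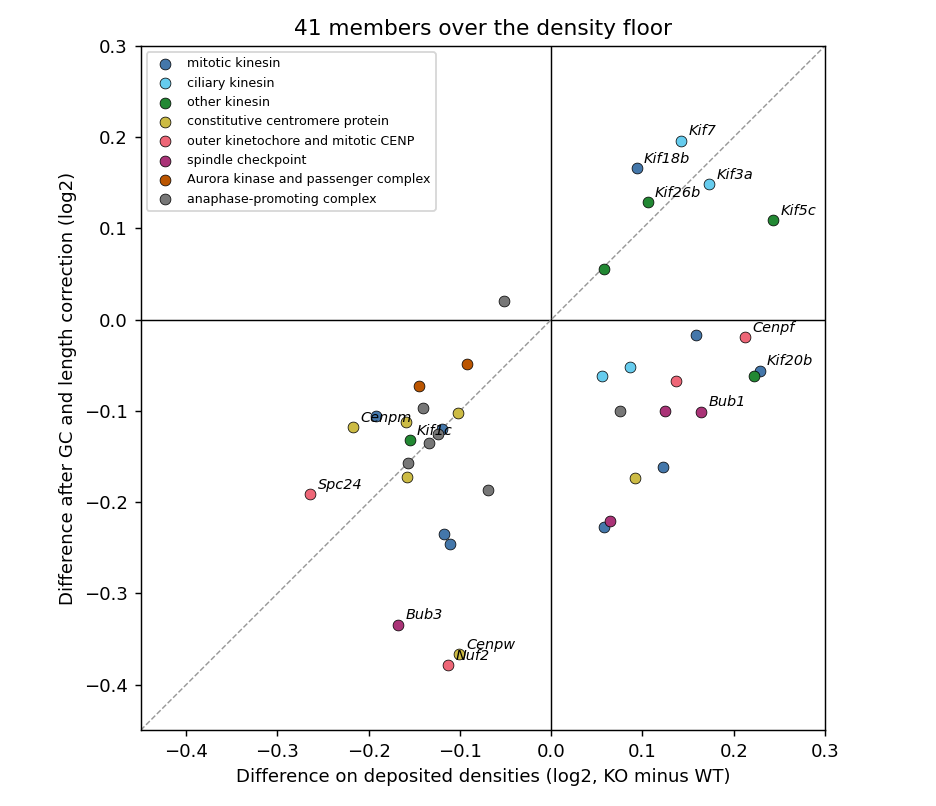
Log2 difference of the 41 members above the floor on deposited densities (horizontal) and corrected for GC content and length (vertical), coloured by role, with a dashed line where both are equal. Most members right of 0 fall below 0 on the vertical axis, while 6 of the 13 kinesins there, among them Kif7 and Kif18b, stay above 0 on both.

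Over the whole window, the promoter letters were about as frequent among members higher in KO as among lower ones, by direction on deposited densities. Among windows of members above the floor, 10 of 19 (52.6%) held TTTGAA or TTCGAA where the gene was higher in KO, and 11 of 20 (55.0%) where it was lower. CCAAT was in 11 of 19 (57.9%) and 13 of 20 (65.0%). Within 50 bases of the start, TTTGAA or TTCGAA began in 10 of 19 windows (52.6%) of higher members and 7 of 20 (35.0%) of lower ones. Whether the letters bear on direction was not tested. Cenpf and Cenpa, both with TTTGAA within 16 bases after the start and CCAAT upstream, had ratios of 1.17 and 0.929.

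Other genes of the same processes came from lists drawn up for this comparison, and their counts above the floor stand against 55.8% of all genes there lower as deposited and 72.8% after the correction. The 13 further kinetochore and passenger genes at high density had 5 members higher and 8 lower in KO, 10 lower after the correction, and 0 at 1.5-fold. Hjurp, the chaperone that loads Cenpa, had the largest difference, at 53.9 RPKM in KO and 68.0 RPKM in WT, and Sgol2, a protector of centromeric cohesin, the largest positive one, at 9.11 RPKM in KO and 7.44 RPKM in WT. The passenger subunits Birc5 (35.1 RPKM in KO, 37.6 RPKM in WT) and Cdca8 (13.5 RPKM in KO, 14.7 RPKM in WT) were also lower in KO, before and after the correction. Of 4 further subunits and regulators of the anaphase-promoting complex, 2 were higher and 2 lower in KO, and 3 lower after the correction. Cdc27 was at 21.4 RPKM in KO and 18.6 RPKM in WT, and the activator Fzr1 at 12.8 RPKM in KO and 14.3 RPKM in WT.

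Spindle assembly factors above the floor, with the kinesin-associated protein Kifap3 counted among them, were higher in KO in 7 of 12. After the correction 9 of 12 were lower. Kifap3 counts in both numbers, with a log2 difference of 0.07 as deposited and -0.14 after the correction. Haus4, a subunit of the augmin complex that branches spindle microtubules, was the 1 at least 1.5-fold lower, at 11.04 RPKM in KO and 17.6 RPKM in WT. The abscission protein Cep55 was at 12.0 RPKM in KO and 9.60 RPKM in WT. Of 13 mitotic kinases, cyclins and regulators, 8 were higher and 5 lower in KO, and 10 lower after the correction. Ccnb1, cyclin B1, was at 17.3 RPKM in KO and 13.0 RPKM in WT, and Ccnf, cyclin F, at 12.2 RPKM in KO and 16.6 RPKM in WT.

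Cohesin and condensin genes were higher in KO in 11 of 14 and lower in 13 of 14 after the correction, and this list had the lowest median GC content, 41.95%. Its median difference was 0.18 on deposited densities and -0.08 after the correction. The condensin subunit Ncapd2 was the 1 at least 1.5-fold lower, at 36.01 RPKM in KO and 63.4 RPKM in WT, a ratio of 0.568 (0.558 to 0.578), while its partner Smc4 was at 24.6 RPKM in KO and 20.8 RPKM in WT. Among 13 genes of dynein, dynactin and the kinesin light chains, 6 were higher and 7 lower in KO, and 10 lower after the correction. Dctn3, a dynactin subunit and the 1 at least 1.5-fold lower, was at 9.77 RPKM in KO and 16.2 RPKM in WT, and Klc4, a light chain of conventional kinesin, at 10.5 RPKM in KO and 13.4 RPKM in WT.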

How the data were processed

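The authors deposited, per the file headers, 1 read density for each library, with a p-value, a corrected p-value, an unsigned fold ratio and a signed fold change, here called a score since it is below 0 for genes lower in KO. CASAVA 1.8, Novoalign 2.08.02 and FastQC, and builds GRCm38 and mm10, are named without roles per the submitters' processing notes; the sources used here do not give the counting rules or strand. The deposited density behaves as RPKM, a reading from the values. Fold changes of genes at 0 in 1 library were whole multiples of a step, within 0.01 of a read, for 70 of 75 (KO) and 150 of 171 genes (WT), and density times gene length per read gave 1 constant, within 0.5%, for 48 of 67 (KO) and 100 of 149 (WT). Reads of a member are density times length (GENCODE vM21) times implied depth; they came out whole within 0.01 in both libraries for 18 of 62 members, so the others are approximate.

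Differences are log2(KO + 1) minus log2(WT + 1), with no test, since there was 1 library per group. Exact (Clopper-Pearson) 95% intervals of the ratio cover counting error only. The size rule was 1.5-fold and the floor the upper 50% of mean density. The correction used 10 GC and 4 length bins, of listed genes above the floor for genes above it and of all listed genes for genes below it. Members, roles, lists and the rule for named genes (8 highest and 8 lowest above the floor, the 3 most abundant, the most abundant of each role, the 3 largest each way below the floor, 2 per other list, with Trp53 and Six2) were chosen with earlier results of these data known. Other genes were named after their values were seen. Not every exon overlap of a member is reported here. Python 3.11.15, pandas 2.3.3 and scipy 1.17.1 were used.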

Additional observations from a re-analysis of the deposited data

How the results depend on the processing

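No paired analysis was possible because there was 1 library per group. The median log2 difference of members above the floor, -0.05, was 0.0022 without a floor, -0.10 with a floor at the 75th percentile, 0.02 when centred on the median, 0.0042 with the authors' scaling and -0.10 with the GC and length correction. Of 41 members 21 were lower in KO, 11 of 16 above the 75th percentile floor and 34 of 41 with the correction. No member above the floor reached 1.5-fold in any setting, and without a floor 1 was lower, Kif12. For all genes, the counts at 1.5-fold were 35 higher and 128 lower. They were 101 and 583 without a floor, 17 and 42 with the 75th percentile floor and 10 and 46 at 2-fold, while 22 were higher with a pseudocount of 4 and 54 when centred. Above the floor, single differences changed sign in 15 members with the correction, 2 when centred and 1 with the authors' scaling. What causes them was not tested. The correction rests on listed genes alone, which leave out genes with little difference. Differences smaller than the spread between animals cannot be recognised with 1 library per group.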
